A study of Homo sapiens with 4 samples.

Results

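The genes described here are the protein-coding genes of human chromosome 19 whose symbol is ZNF followed by a number. GENCODE release 29 annotates 246 of them, 83 on the short arm and 163 on the long arm, and 245 had at least 1 transcript in the deposited tables of 34500 genes. ZNF888 had none. Of the 245, 218 passed the filter on low counts and were tested, 68 of the short arm and 150 of the long arm, among 14774 genes tested in all. The other 27 stood at a mean of at most 0.57 TPM (a level corrected for library size and transcript length).

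The cells were MCF10A, a human mammary epithelial line that grows without limit in culture and does not form tumours. All 4 libraries came from MCF10A cells with a stably expressed scramble shRNA, which is a non-targeting hairpin, so every level below is that of the hairpin-carrying line. In 2 libraries the cells had received TGF-β1, a secreted growth factor, at 5 ng/ml for 1.5 h, and in 2 control libraries at 0 h they had received none. The labels call the samples biological duplicates and give them replicate numbers 1 and 2, without saying what a shared number stands for. The p-values below therefore measure the spread between these libraries, which is all that replicates them. In the comparison of replicate numbers each group holds 1 TGF-β1 and 1 control library. Its p-values and standard errors thus measure the spread between treatments within a number, and not between repeated libraries of 1 number and treatment.

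The total of estimated counts ran from 35737659 to 40792300 per library. All 5 markers of basal mammary epithelium and all 4 general epithelial markers were present, at a mean of 27.7 TPM or more. The 3 endothelial markers stayed under 1 TPM. Of 3 blood markers CD3E was at 0, PTPRC averaged 0.33 TPM and CD68, a lysosomal protein of macrophages, 14.9 TPM, and hormone-responsive luminal markers reached at most 7.01 TPM. Of 5 fibroblast markers 3 were under 1 TPM, and the highest was DCN at 18.8 TPM. Composition differed by replicate number. Cytosolic ribosomal protein genes held 9.70% of all gene counts in TGF-β1 replicate 2 and 9.44% in control replicate 2, against 7.36% in TGF-β1 replicate 1 and 7.40% in control replicate 1.

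Most ZNF genes of chromosome 19 encode DNA-binding proteins with a row of C2H2 zinc fingers, in which a pair of cysteines and a pair of histidines hold a zinc ion and a few residues between them read the bases of DNA. Many also carry a KRAB domain, which recruits the co-repressor TRIM28 (KAP1) and, through it, the histone H3 lysine 9 methyltransferase SETDB1 and heterochromatin protein 1, so that the bound locus is silenced. The family grew by tandem duplication, it is known for silencing transposable elements, and the chromosome 19 clusters themselves are covered by this repressive chromatin in many human cell types.

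The shared build of the family is seen in the fifth finger of 5 short-arm genes, which are among those called in the comparison of replicate numbers below. The sequences are coding DNA from GRCh38 with GENCODE release 29 positions, printed from the first cysteine codon through the linker to the next finger, 84 bases each, and the capitals mark the codons of the 2 cysteines and 2 histidines. ZNF91 lies at chr19:23361842-23361925 on the minus strand, ZNF431 at chr19:21183255-21183338 on the plus strand, ZNF714 at chr19:21117439-21117522 on the plus strand, ZNF724 at chr19:23223144-23223227 on the minus strand and ZNF100 at chr19:21727274-21727357 on the minus strand. ZNF431 was chosen after its values were seen, and the other 4 by the rule for named genes.
ZNF91: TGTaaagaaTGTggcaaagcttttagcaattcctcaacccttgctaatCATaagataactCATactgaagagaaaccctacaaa
ZNF431: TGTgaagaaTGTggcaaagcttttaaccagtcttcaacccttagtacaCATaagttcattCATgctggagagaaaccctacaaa
ZNF714: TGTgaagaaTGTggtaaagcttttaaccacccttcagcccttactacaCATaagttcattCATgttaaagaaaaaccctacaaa
ZNF724: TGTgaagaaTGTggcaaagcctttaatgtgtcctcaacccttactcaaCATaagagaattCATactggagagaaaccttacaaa
ZNF100: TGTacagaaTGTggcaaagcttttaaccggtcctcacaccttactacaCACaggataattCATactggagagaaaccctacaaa
These 5 stretches share between 76.2% of bases (ZNF714 and ZNF724) and 89.3% (ZNF431 and ZNF714). In the comparison of replicate numbers ZNF91 and ZNF431 were called higher in the libraries numbered 2, and ZNF714, ZNF724 and ZNF100 were called lower in them.

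Because the genes are such close copies, the share of each gene's 31-base words found in no other matched gene was computed. It is a measure of how well reads can be assigned. Deposited transcripts without a GENCODE match were not searched, so the shares among all deposited transcripts can be lower. The median was 89.6%, 120 genes had at least 90%, and 11 had less than 50%. The lowest share was 11.6% in ZNF177, which overlaps the readthrough gene ZNF559-ZNF177. ZNF320 had 24.9% and shared 70.6% of its words with its neighbour ZNF468, and ZNF724 had 39.5%. The estimated counts of such genes are uncertain as values of a single gene.

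A run of fingers with the spacing of C2H2 proteins was found in the translated coding sequences, with a median of 12 fingers per gene. The range was 0 to 36, with no finger of that spacing in ZNF738 and 36 in ZNF208, both named after their values were seen, while ZNF91 had 31. A KRAB pattern was found in 210 of the 246 genes and not in 36.

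In position the genes fell into 9 clusters, defined as runs of at least 5 of them with neighbouring starts no more than 1000000 bases apart. The short arm held clusters of 5 genes (chr19:2819874-2944971), 15 genes (chr19:7069444-9793180), 25 genes (chr19:11483427-12640098) and 37 genes (chr19:19668796-24129961). The long arm held clusters of 5 genes (chr19:34677639-34964049), 26 genes (chr19:36182060-37817300), 24 genes (chr19:43525497-45076588), 39 genes (chr19:51571298-53580269) and 59 genes (chr19:55476332-58481230). They are numbered here from the short-arm end within each arm, and 11 genes lay outside, 1 on the short arm and 10 on the long arm.

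Most of these genes were transcribed at a low level in MCF10A cells. Of the 245, 181 had a mean of at least 1 TPM over the 4 libraries, 88 had at least 5 TPM, 23 at least 10 TPM and 7 at least 20 TPM. The median of the means was 3.27 TPM, with quartiles of 0.83 and 6.53 TPM. Among genes with at least 0.5 TPM, the median was 4.34 TPM for the 200 chromosome 19 ZNF genes and 16.8 TPM for protein-coding genes as a whole. Together they made up 0.196% and 0.215% of gene counts in TGF-β1 replicates 1 and 2, and 0.212% and 0.236% in control replicates 1 and 2. At 95% the Wilson bounds, for counting error alone, were 0.194% and 0.197%, then 0.213% and 0.216%, for these TGF-β1 libraries, and 0.211% and 0.214%, then 0.235% and 0.238%, for these control libraries.

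ZNF146, a protein made almost wholly of zinc fingers, was the most abundant, at 68.3 and 74.2 TPM in TGF-β1 replicates 1 and 2 and 70.8 and 76.3 TPM in control replicates 1 and 2. Its lowest library lay above the highest library of every other gene of the set. ZNF544 followed with a mean of 39.7 ± 5.89 TPM (SD, n = 4), ZNF581 with 37.9 ± 13.3 TPM and ZNF121 with 33.3 ± 3.10 TPM, and the ranges of these 3 overlapped. ZNF561 (26.5 ± 3.71 TPM), ZNF787 (24.5 ± 2.08 TPM), ZNF562 (21.7 ± 0.95 TPM) and ZNF460 (19.6 ± 1.56 TPM) came next. The ranges of neighbours among these 4 overlapped, and the highest library of ZNF561, at 30.5 TPM, lay below the lowest of ZNF121. The 10 most abundant genes held 25.2% of the summed TPM of the set. Of the 20 most abundant, 7 lacked the KRAB pattern, ZNF146, ZNF581, ZNF121 and ZNF787 among them, but the median level was close between genes with the pattern (3.27 TPM) and without it (3.54 TPM).

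**Figure D1:**
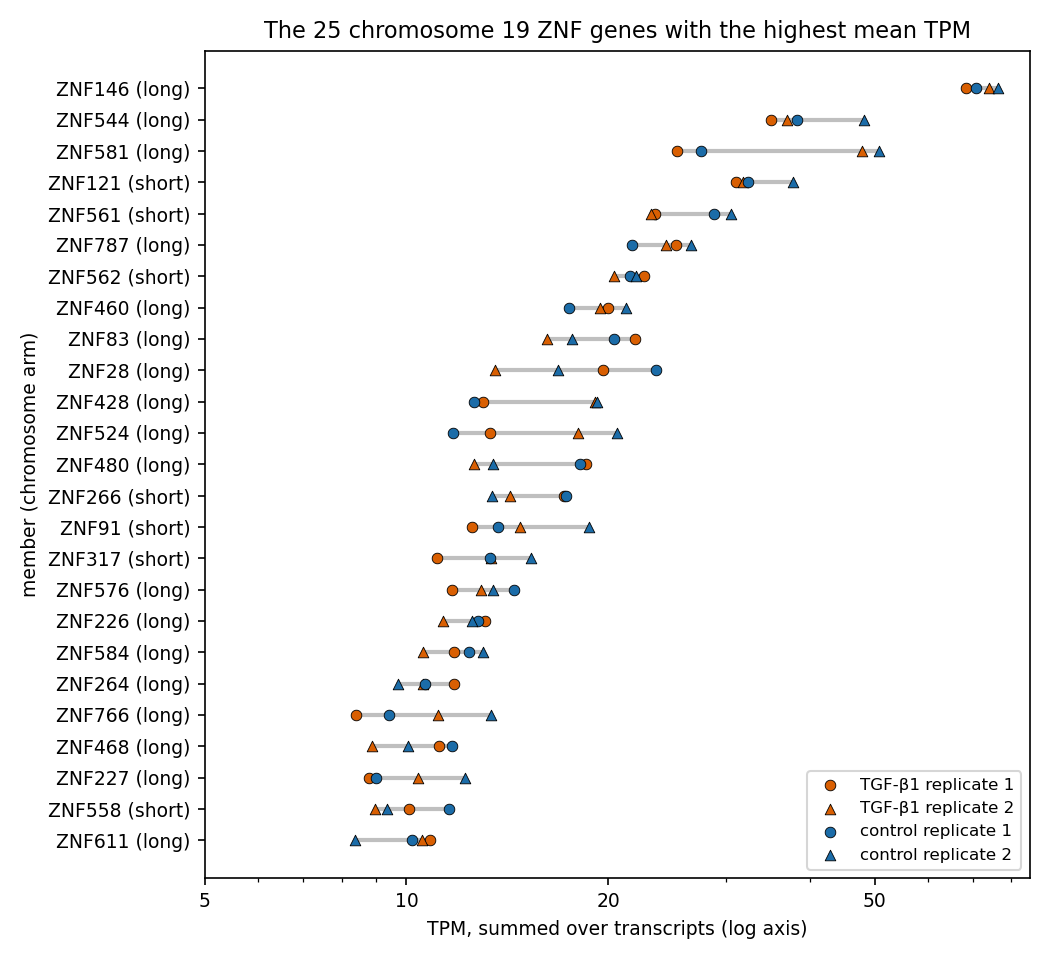
TPM in each of the 4 libraries (log axis) for the 25 chromosome 19 ZNF genes with the highest mean, TGF-β1 in orange and control in blue, circles for replicate 1 and triangles for replicate 2. ZNF146 stands alone above 68 TPM, and ZNF581 spreads widest among the leading genes because both triangles lie right of both circles.

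The clusters differed in level. The fourth long-arm cluster had the highest median, 6.18 TPM, followed by the second short-arm cluster, which holds ZNF121, ZNF561, ZNF562 and ZNF266, at 5.38 TPM, and the fifth long-arm cluster at 4.20 TPM. The third and the fourth short-arm clusters were lowest, at 1.69 and 1.54 TPM, and the remaining 4 lay between 2.23 and 3.55 TPM. The fourth short-arm cluster, which has expanded in primates, held both silent and active genes. ZNF91, which represses SVA retrotransposons, averaged 14.9 ± 2.70 TPM (SD, n = 4), while ZNF93, a repressor of LINE-1 elements, averaged 1.68 ± 0.65 TPM. ZNF85 stood at 5.30 ± 0.76 TPM and ZNF43 at 0.57 ± 0.22 TPM, too low to be tested.

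In all, 5 genes were at 0 in every library: ZNF878, ZNF730 and ZNF676 on the short arm, and ZNF536 and ZNF582 on the long arm. ZNF541, ZNF729, ZNF560, ZNF723, ZNF534, ZNF728 and ZNF98 had no more than about 1 estimated count in any library. These names were chosen after their values were seen. Of the 45 genes under 0.5 TPM, 26 were on the short arm and 19 on the long arm.

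Of members with textbook roles, ZNF274, which brings SETDB1 to the ends of other ZNF genes, averaged 8.55 ± 1.44 TPM. ZNF473 (ZFP100), a factor of histone pre-mRNA processing, averaged 9.52 ± 0.95 TPM, and ZNF224, a KRAB repressor first described on the aldolase A promoter, 8.25 ± 1.30 TPM. ZNF350 (ZBRK1), a repressor that binds BRCA1, averaged 7.29 ± 1.37 TPM, and ZNF675 (TIZ), an inhibitor of TRAF6 signalling, 8.68 ± 0.54 TPM. ZNF331, from an imprinted locus, stood at 3.60 ± 0.43 TPM, ZNF444 at 6.02 ± 1.10 TPM, ZNF580 at 4.60 ± 1.53 TPM and ZNF611 at 9.99 ± 1.10 TPM (SD, n = 4 for each).

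Promoters were read from RefSeq's GRCh38.p14 annotation as the 250 bases before the gene start, and 215 of the genes matched. The letters of 4 motifs were searched on both strands. The ETS letters CCGGAAGT stood in 31 of the 215 (14.4%) and in 3.64% of all 27305 promoters of that length. No filter to protein-coding genes was put on this background, here or for the other motifs and CG counts. The YY1 letters AAGATGGC stood in 9 of the 215 (4.19%) and in 1.37% of all promoters. The TATA box letters TATAAA stood in 4 (1.86%) and in 11.1% of all promoters. A SMAD palindrome, GTCTAGAC, stood in only 1 of the 215 (0.465%), and in 0.176% of all promoters. The median number of CG dinucleotides was 16 against 11. Promoters of 3 of the more abundant genes with the ETS letters are shown, with every match on either strand in capitals: ZNF787 (chr19:56121296-56121545, minus strand), ZNF264 (chr19:57191250-57191499, plus strand) and ZNF460 (chr19:57279732-57279981, plus strand).
ZNF787: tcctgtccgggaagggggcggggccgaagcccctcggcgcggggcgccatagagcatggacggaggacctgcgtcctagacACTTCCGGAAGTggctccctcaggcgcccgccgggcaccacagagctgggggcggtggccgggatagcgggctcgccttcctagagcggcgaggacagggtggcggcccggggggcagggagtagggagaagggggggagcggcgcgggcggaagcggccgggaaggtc
ZNF264: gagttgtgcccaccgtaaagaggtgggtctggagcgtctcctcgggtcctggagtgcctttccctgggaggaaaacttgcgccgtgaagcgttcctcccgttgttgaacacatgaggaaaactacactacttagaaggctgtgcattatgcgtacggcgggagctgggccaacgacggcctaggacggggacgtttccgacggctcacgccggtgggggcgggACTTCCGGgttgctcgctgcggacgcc
ZNF460: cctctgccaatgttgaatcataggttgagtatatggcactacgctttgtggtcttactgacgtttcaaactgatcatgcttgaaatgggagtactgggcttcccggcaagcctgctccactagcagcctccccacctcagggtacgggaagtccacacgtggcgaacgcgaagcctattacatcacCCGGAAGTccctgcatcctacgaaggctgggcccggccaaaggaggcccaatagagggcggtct
In ZNF787 2 matches, 1 on each strand, overlap, and the capitals run over both. A match is a description of letters and not of a bound site.

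No chromosome 19 ZNF gene passed the test between TGF-β1 and control libraries. Most estimates were nevertheless slightly below 0: 169 of 218 (77.5%) had a negative log2 fold change, against 52.3% of all genes tested, and their median was -0.11, against -0.01 for all genes. After Benjamini-Hochberg adjustment, edgeR's quasi-likelihood test left 0 of the 218 past the threshold of 0.05, and 0.0% of all 14774 genes. That fit had no term for replicate number. Between the numbers 37.4% of all genes were called, and this difference entered the error of the fit. Without adjustment, 0 of the 218 had a p under 0.05, where 198 of all genes were higher and 57 lower. DESeq2 called 0 of them, with 0.511% of all genes higher and 0.0426% lower. The median of the set moved with single libraries. It was -0.04 when TGF-β1 replicate 1 was left out, close to the -0.019 of all genes in that fit. When TGF-β1 replicate 2 was left out it was -0.18, against 0.002 over all genes. Without control replicate 1 it was -0.17, and without control replicate 2 it was -0.06, against 0.006 and 0.002 over all genes.

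The small shift stood in both same-numbered pairs of libraries. In log2 ratios of CPM (counts scaled to the size of the library, here with a prior count of 2), the median of the 218 genes was -0.14 for replicates 1 and -0.12 for replicates 2. In both pairs 116 of 218 genes (53.2%) were lower with TGF-β1, against 28.6% of all genes tested. In both pairs 18 (8.26%) were higher, against 26.3%. For 56 genes (25.7%) both TGF-β1 libraries lay below both control libraries, where the share over all genes was 8.34%, and for 10 genes (4.59%) they lay above, against 7.87%. Summed over the set, the level came to 1981 and 2172 CPM in TGF-β1 replicates 1 and 2, and to 2130 and 2310 CPM in control replicates 1 and 2, a change of -7.00% within replicates 1 and -5.96% within replicates 2. In TPM the sums were 1184 and 1205 with TGF-β1 and 1235 and 1341 in control. TGF-β1 replicate 2 lay above control replicate 1 in summed CPM, so the groups overlapped on that scale, while in TPM both TGF-β1 sums were below both control sums. In bulk RNA, fewer cells expressing a gene and less RNA per cell cannot be told apart.

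**Figure D2:**
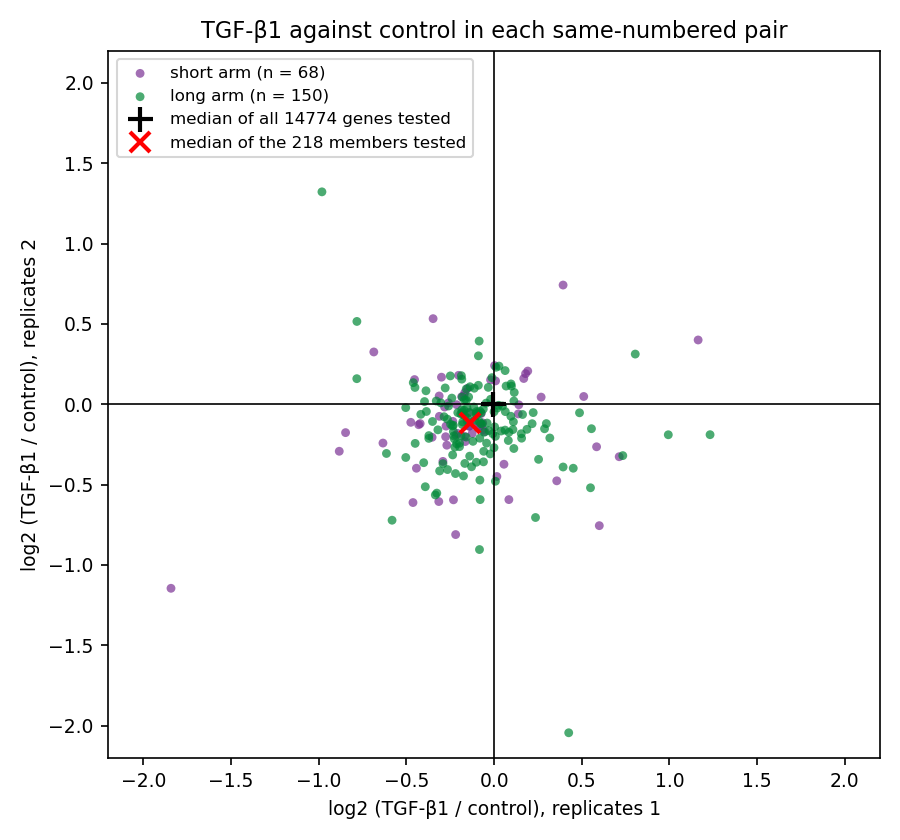
Log2 ratio of TGF-β1 over control in replicates 2 (vertical) against replicates 1 (horizontal) for each of the 218 tested genes, by chromosome arm, with the median of the set (red cross) and of all 14774 genes (black plus). The 116 genes to the lower left of the crossing lines were lower with TGF-β1 in both pairs, and the median of the set lies at -0.14 and -0.12.

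By arm, the median log2 fold change was -0.12 over the 68 short-arm genes and -0.10 over the 150 long-arm genes. Both TGF-β1 libraries lay below both controls for 19.1% of the short-arm genes and for 28.7% of the long-arm genes, and the difference between arms was not tested. All 9 clusters had a negative median. It ran from -0.24 in the first short-arm cluster, -0.23 in the first long-arm cluster and -0.19 in the second long-arm cluster to -0.06 in the fifth long-arm cluster. In the first long-arm cluster 5 of 5 genes, and in the second 17 of 25, were lower with TGF-β1 in both pairs. In the fifth long-arm cluster 20 of 54 were.

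Genes nearby and genes of like name were set beside them as a description. The 231 tested ZNF genes of other chromosomes had a median of -0.04, and 40.7% of them were lower in both pairs. Among these the 105 with a KRAB pattern had a median of -0.07 and 49.5% lower in both pairs, and the 126 without had -0.02 and 33.3%. The 793 other protein-coding genes of chromosome 19 had a median of 0.02, and 20.8% were lower and 33.0% higher in both pairs. Within the chromosome 19 ZNF genes the median was -0.11 for the 188 with a KRAB pattern (54.8% lower in both pairs) and -0.07 for the 30 without it (43.3%). It was -0.11 both for the 106 genes with at least 90% of words of their own and for the 112 with fewer.

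The share of genes lower in both pairs also differed by level. With all genes tested divided into 4 classes of equal size by mean CPM, 38.2% of 68 chromosome 19 ZNF genes in the lowest class were lower in both pairs, against 29.8% of all genes of that class. In the second class the shares were 58.1% of 129 and 34.3%, and in the third 73.7% of 19 and 28.4%. The highest class held 2 genes of the set, 1 of them lower in both pairs.

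Single genes with separated groups had modest estimates. Genes named for separated groups, in either direction and in both comparisons, were taken by smallest p among genes with such groups. Their separation was thus set by the choice and is not a result. ZNF45, a KRAB gene of the third long-arm cluster (chr19:43912629-43935278), was at 11.2 and 12.6 CPM in TGF-β1 replicates 1 and 2 and at 15.4 and 15.0 CPM in control replicates 1 and 2. Both TGF-β1 libraries lay below both controls, and the log2 fold change was -0.35 (SE 0.15, edgeR's adjusted p = 1). ZNF607 (chr19:37696363-37719790) was at 7.06 and 7.10 CPM with TGF-β1 and at 9.34 and 9.15 CPM in control. These pairs were tight within each group and did not overlap, with a log2 fold change of -0.38 (SE 0.17, edgeR's adjusted p = 1). ZNF345 (chr19:36850361-36913029) was at 1.18 and 1.19 CPM with TGF-β1, against 1.79 and 1.99 CPM in control, a log2 fold change of -0.68 (SE 0.31). ZNF526, ZNF784 and ZNF552 had separated groups too, with log2 fold changes of -0.29, -0.46 and -0.34. With the replicate number as a block, edgeR's adjusted p of the genes named here ran from 0.212 (ZNF45) and 0.243 (ZNF607) to 0.512 (ZNF784).

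In the other direction, ZNF264, the gene whose promoter is shown above, was at 29.1 and 30.8 CPM with TGF-β1 and at 27.2 and 28.2 CPM in control. Its groups did not overlap, and the log2 fold change was 0.11 (SE 0.12). ZNF574 was at 13.0 and 13.4 CPM with TGF-β1 and at 12.4 and 12.4 CPM in control, a log2 fold change of 0.09. ZNF443, ZNF772, ZNF350 and ZNF675 also had separated groups, with log2 fold changes of 0.20, 0.13, 0.14 and 0.13, and ZNF443 has only 43.6% of words of its own. With the replicate number as a block, edgeR's adjusted p of these higher genes ran from 0.724 (ZNF264) to 0.867 (ZNF574). For ZNF350 the sign did not hold in TPM, where it was at 6.95 and 6.50 with TGF-β1 and at 6.39 and 9.32 in control.

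The extremes among genes with at least 50 counts on average in 1 group were low or poorly resolved genes. ZNF358 had the lowest log2 fold change, -1.34 (SE 1.13), from 0.179 and 1.30 CPM with TGF-β1 and 0.780 and 2.95 CPM in control. The libraries numbered 2 were its higher ones in each group, so the groups overlapped. With the replicate number as a block its estimate was -1.46 (edgeR's adjusted p = 0.112). With 1 library left out the estimate ran from -3.34 (without TGF-β1 replicate 2) to -0.09 (without control replicate 2). ZNF320 had the highest, 0.26 (SE 0.59), from 3.73 and 9.91 CPM with TGF-β1 and 7.43 and 3.93 CPM in control. Its TGF-β1 libraries lay on both sides of the controls, and the sign turned without TGF-β1 replicate 2 (-0.60) or without control replicate 2 (-0.13).

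The abundant genes were close between groups. The log2 fold changes of ZNF146, ZNF544, ZNF581 and ZNF787 were -0.02 (SE 0.12), -0.10 (SE 0.11), -0.06 (SE 0.48) and 0.08 (SE 0.16). ZNF460 had -0.0028 (SE 0.13). On the short arm ZNF121 had -0.11, ZNF562 -0.07, ZNF266 -0.07 and ZNF91 -0.09. ZNF561 had -0.14 (SE 0.12) and separated groups, at 30.5 and 32.7 CPM with TGF-β1 and 33.6 and 36.0 CPM in control. The genes with known roles lay between -0.50 (ZNF93) and 0.14 (ZNF350), with ZNF274 at 0.10, ZNF473 at -0.17 and ZNF224 at -0.06. ZNF85 stood at -0.21, ZNF331 at -0.10, ZNF611 at -0.07, ZNF444 at 0.02 and ZNF580 at -0.11, none of them past the threshold.

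**Figure D3:**
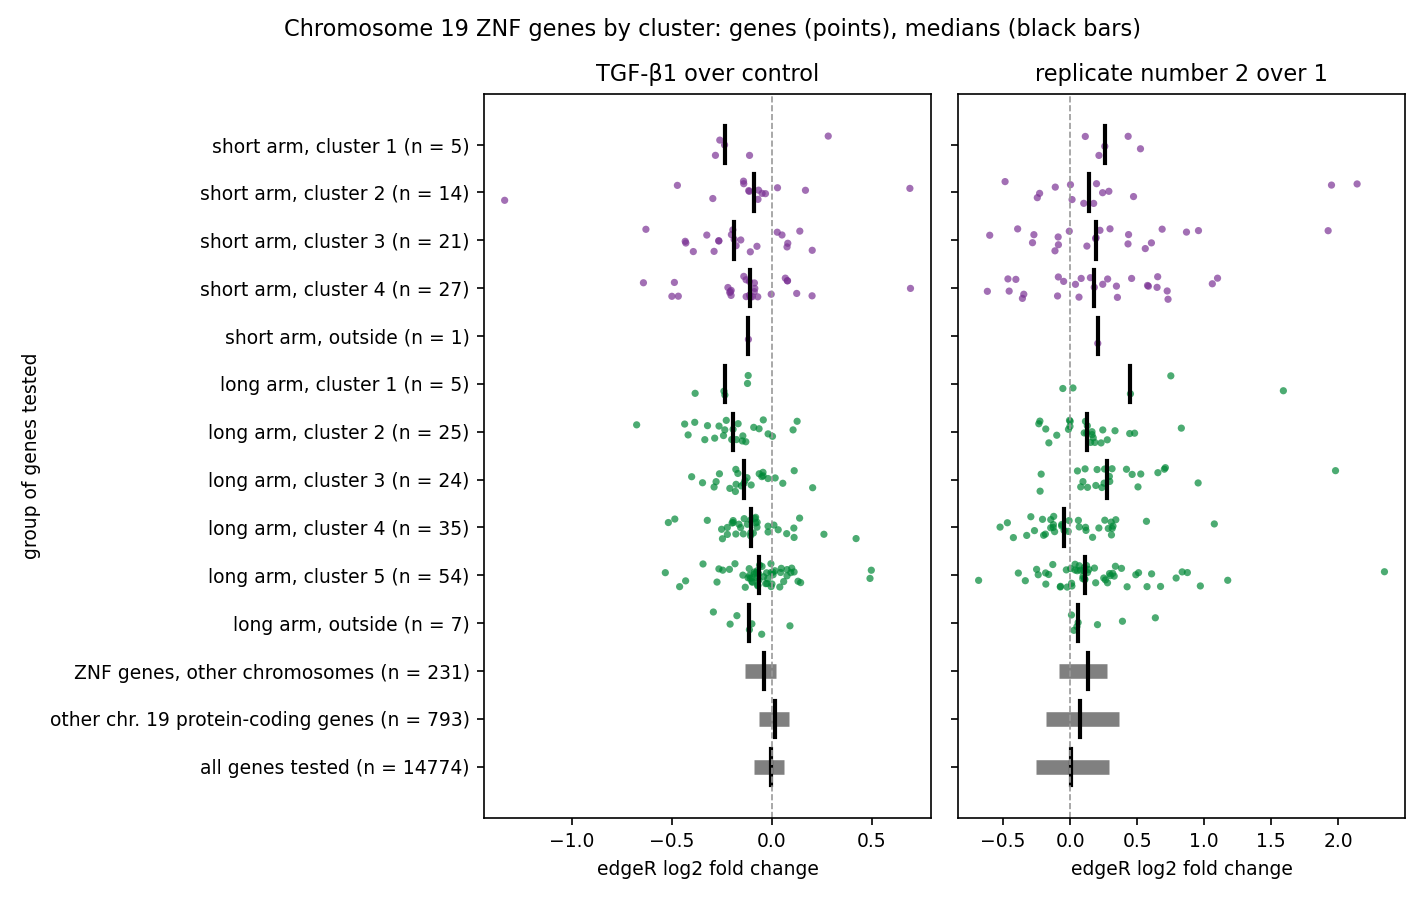
edgeR log2 fold changes of the tested genes by cluster, TGF-β1 over control on the left and replicate number 2 over 1 on the right, with 1 point per gene and a black bar at each median. The last 3 lines show the quartiles (grey) and medians of the ZNF genes of other chromosomes, the other protein-coding genes of chromosome 19 and all genes tested. On the left every cluster median is below 0, and on the right only that of the fourth long-arm cluster is.

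The co-repressor side of the system was read from 35 genes of the KRAB and TRIM28 pathway, all of them tested. None was called between TGF-β1 and control by edgeR without covariates, at 0.0% of all genes, and their median log2 fold change was -0.01, with -0.01 over all genes. TRIM28 was at 382 and 343 TPM with TGF-β1 and at 348 and 359 TPM in control. SETDB1 was at 30.4 and 34.4 TPM with TGF-β1 and at 32.6 and 36.9 TPM in control, and the groups of both genes overlapped. Deposited transcripts without a GENCODE match entered no gene sum, and whether any were of DAXX or another listed gene was not checked. DAXX, a histone H3.3 chaperone, was at 10.7 and 6.36 TPM with TGF-β1 and at 4.23 and 3.52 TPM in control. It was the 1 gene of the list under an unadjusted p of 0.05, with a log2 fold change of 1.16 (SE 0.27, edgeR's adjusted p = 1).

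Between replicate numbers the set did hold called genes, in a smaller share than among all genes tested. In libraries numbered 2 against libraries numbered 1, each pair holding 1 TGF-β1 and 1 control library, the quasi-likelihood test of edgeR found 24 of 218 genes higher after adjustment (11.0%), against 16.4% of all genes tested. It found 5 lower (2.29%), against 21.0%. These calls rest on the spread between the TGF-β1 and the control library of each number, with no repeat of either within a number. DESeq2 called 19 higher and 4 lower, with 13.9% and 21.5% of all genes, and 21 of the 29 genes were called by both. The fit that left out TGF-β1 replicate 1 called 14 higher and 4 lower, and the fit that left out TGF-β1 replicate 2 called 9 and 0. Leaving out control replicate 1 gave 19 and 1, and leaving out control replicate 2 gave 8 and 1. The share of all genes called in the fits without 1 library is not given here, so those counts have no background beside them. Before adjustment edgeR had 47 of the 218 higher and 9 lower with a p under 0.05, where 3299 and 3853 of all 14774 genes were. The median log2 fold change was 0.13 over the set and 0.01 over all genes, with 0.14 within the TGF-β1 libraries and 0.12 within the control libraries. In both treatments 122 genes (56.0%) were higher in the library numbered 2, against 41.0% of all genes, and 42 (19.3%) were lower, against 41.1%. Both libraries numbered 2 lay above both numbered 1 for 90 genes (41.3%), against 35.9%, and below for 29 (13.3%), against 36.6%. The share of ribosomal protein mRNAs differed between the same libraries, at 9.70% and 9.44% in TGF-β1 and control replicates 2 against 7.36% and 7.40% in TGF-β1 and control replicates 1, and its part in these counts was not tested.

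By level, the lowest of the 4 classes had a median log2 fold change of 0.34 for 68 genes of the set and 0.32 for all genes in it. In that class 11.8% of the set were called higher and 0% lower, against 13.2% and 3.95% of all genes. In the second class 9.30% of 129 genes of the set were called higher and 3.88% lower, against 15.9% and 16.8% of all genes of that class. In the third class 4 of 19 (21.05%) were called higher, above the 16.7% of all genes, and 0 lower, against 29.7%.

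The called genes were spread over both arms. On the short arm 6 were higher and 3 lower in the libraries numbered 2, and on the long arm 18 were higher and 2 lower. On each arm both shares were below those of all genes tested. The fifth long-arm cluster held 10 higher and 1 lower of 54 tested, and the third held 5 higher of 24. The fourth short-arm cluster held 4 higher and 3 lower of 27. In that order, 18.5%, 20.8% and 14.8% of their tested genes were called higher, near the 16.4% of all genes. The shares called lower were below the 21.0% of all genes in each of these clusters. The third long-arm cluster had a median of 0.27, and the fourth was the 1 cluster with a negative median, -0.05.

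ZNF581, a 4-finger gene without a KRAB pattern (chr19:55635459-55645622), was at 39.8 and 41.1 CPM in TGF-β1 and control replicates 2, against 19.9 and 21.3 CPM in TGF-β1 and control replicates 1. Both libraries numbered 2 were close to each other and far above the other two, with a log2 fold change of 0.97 (SE 0.06, edgeR's adjusted p = 0.00113). Its overlapping neighbour ZNF580, known as a gene induced by low-density lipoprotein in endothelial cells, had a log2 fold change of 0.84 (SE 0.23, edgeR's adjusted p = 0.0427). The pair lie on the same strand and ZNF581 shares 20.5% of its words with ZNF580, so their reads are not fully separable. ZNF91 was at 43.2 and 44.8 CPM in TGF-β1 and control replicates 2 and at 26.7 and 29.5 CPM in TGF-β1 and control replicates 1. The groups did not overlap and the log2 fold change was 0.65 (SE 0.07, edgeR's adjusted p = 0.00293).

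ZNF302 (chr19:34677639-34686397) was at 3.53 and 4.34 CPM in TGF-β1 and control replicates 2, against 1.28 and 1.33 CPM in TGF-β1 and control replicates 1. The groups were separate, with a log2 fold change of 1.59 (SE 0.19, edgeR's adjusted p = 0.00429). ZNF428, which has 1 finger of the C2H2 spacing, had a log2 fold change of 0.70 (SE 0.10, edgeR's adjusted p = 0.00566). That of ZNF776 was 0.57 (SE 0.08, edgeR's adjusted p = 0.00584) and that of ZNF813 was 1.07 (SE 0.16, edgeR's adjusted p = 0.00717). ZNF224 followed with 0.42 (SE 0.08, edgeR's adjusted p = 0.0163).

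Of the 24 higher genes 7 were higher by 2-fold or more, and none of the 5 lower genes was lower by that much. Several of the 7 were weakly transcribed. ZNF671 rested on 18 and 15 estimated counts in TGF-β1 and control replicates 2, against 5 and 2 in TGF-β1 and control replicates 1. ZNF625 rested, in the same order of libraries, on 14.3 and 21.2 estimated counts against 5.02 and 5.17, with 16.0% of words of its own. ZNF229 had 38.1 and 41.0 estimated counts against 11.0 and 11.0, and 99.7% of words of its own. These 3 were chosen after their values were seen.

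Of the 5 genes called lower, 3 lie in the fourth short-arm cluster with ZNF91 and ZNF431. ZNF714 was at 12.8 and 12.8 CPM in TGF-β1 and control replicates 2, against 17.8 and 16.1 CPM in TGF-β1 and control replicates 1. The groups did not overlap, with a log2 fold change of -0.41 (SE 0.09, edgeR's adjusted p = 0.0199). ZNF724 had -0.46 (SE 0.11, edgeR's adjusted p = 0.0248) and ZNF100 had -0.36 (SE 0.10, edgeR's adjusted p = 0.0428). ZNF530 was at 3.48 and 3.66 CPM in TGF-β1 and control replicates 2 and at 5.40 and 6.07 CPM in TGF-β1 and control replicates 1, a log2 fold change of -0.68 (SE 0.14, edgeR's adjusted p = 0.0189). ZNF845, which has 26 fingers, had -0.27 (SE 0.06, edgeR's adjusted p = 0.0276). ZNF28 missed the threshold with -0.29 (SE 0.09, edgeR's adjusted p = 0.0509). It passed with DESeq2, with treatment as a covariate in edgeR and without TGF-β1 replicate 1, and over its alternatives the adjusted p ran from 0.0168 to 0.17. ZNF358 had the highest estimate among genes with at least 50 counts on average in 1 group, 2.14, and missed it too (SE 0.71, edgeR's adjusted p = 0.0694). It passed with DESeq2, with treatment as a covariate in either tool, with limma on TPM and without control replicate 1, and over its alternatives the adjusted p ran from 0.00203 to 0.271. ZNF100 and ZNF845 lost their call in each of the 4 fits without 1 library, and ZNF714, ZNF724 and ZNF530 in 3 of the 4.

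**Figure D4:**
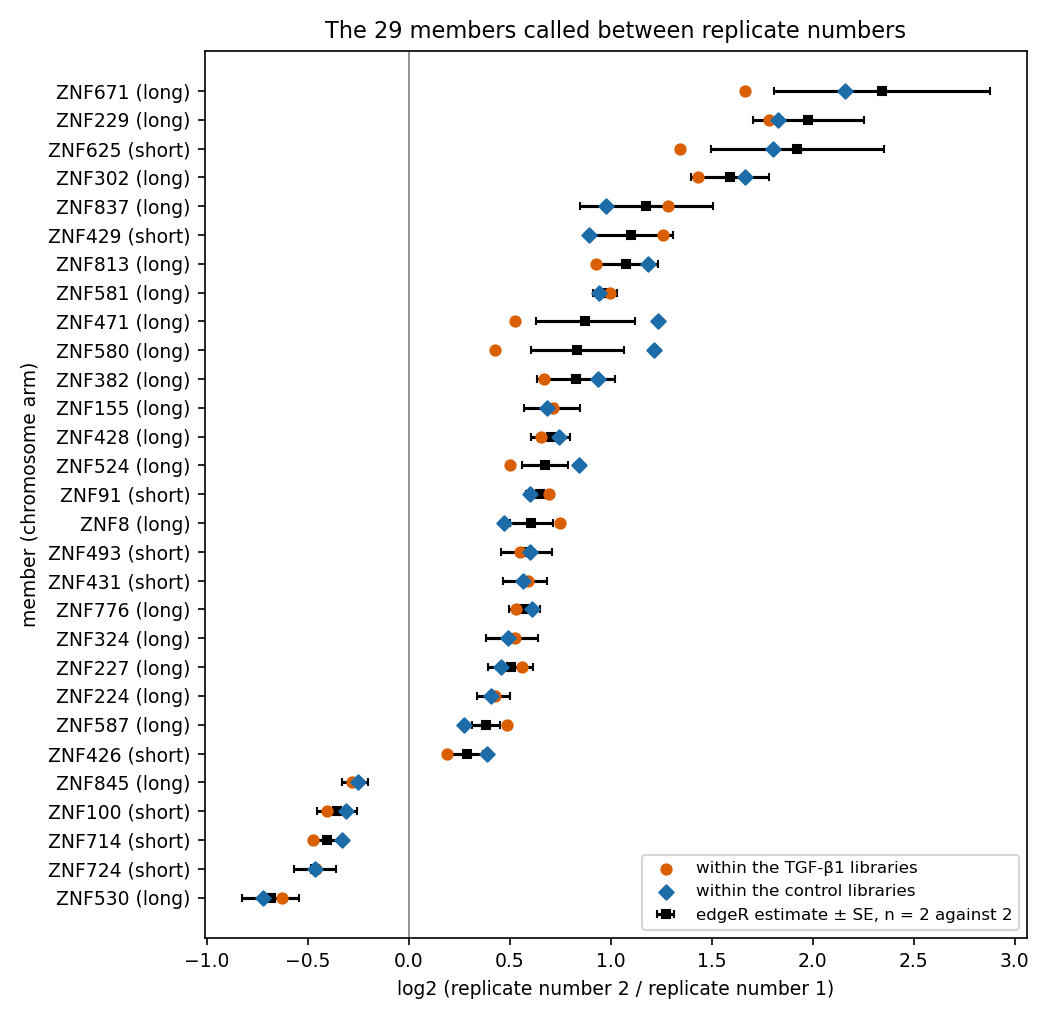
Log2 ratio of replicate number 2 over 1 for the 29 called genes, within the TGF-β1 libraries (orange circles), within the control libraries (blue diamonds) and as edgeR's estimate with its standard error (black squares). In all 29 both treatments lie on the same side of 0.

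The scale mattered for a few of these. In TPM, 27 of the 29 kept their direction within both treatments, and ZNF431 and ZNF224 kept it only within the control libraries. ZNF431 was at 26.1 and 29.9 CPM in TGF-β1 and control replicates 2 and at 17.4 and 20.2 CPM in TGF-β1 and control replicates 1. In TPM it was at 6.87 and 11.8 in the same replicates 2, against 8.25 and 8.02 in replicates 1. Its annotated transcripts in the tables include 1 of 13894 bases and several much shorter ones, which TPM weights differently.

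Among the 35 co-repressor genes edgeR called 4 higher and 10 lower in the libraries numbered 2 (11.4% and 28.6%), against 16.4% and 21.0% of all genes tested, and the median log2 fold change was -0.03. With limma on log2(TPM + 1) the 4 became 0. The 4 became 2 without TGF-β1 replicate 1, without TGF-β1 replicate 2 and without control replicate 2, and the 10 became 6 without control replicate 2. The shares of all genes called in those other fits are not given here. The log2 fold changes were 0.41 for CBX5 (heterochromatin protein 1 alpha), 0.33 for the chromatin remodeller SMARCAD1, 0.23 for the NuRD helicase CHD3 and 0.18 for TRIM33. The maintenance DNA methyltransferase DNMT1 was at 82.2 and 79.6 CPM in TGF-β1 and control replicates 2, against 128 and 130.5 CPM in TGF-β1 and control replicates 1, a log2 fold change of -0.68 (SE 0.04, edgeR's adjusted p = 0.00113). Its partner UHRF1 had -0.64, the de novo methyltransferase DNMT3B -1.12, CBX1 -0.47 and the histone deacetylase HDAC2 -0.44. FAM208A (TASOR), PPHLN1, ATRX, SENP7 and TRIM24 lay between -0.34 and -0.24. TRIM28 and SETDB1 stood at -0.02 and 0.09 and were not called.

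Promoter letters were set beside the TGF-β1 comparison after the data were seen. The 30 tested genes with the ETS letters had a median log2 fold change of -0.01, with 10 lower in both pairs, and the 166 matched genes without them had -0.11, with 93 lower in both pairs. The genes with the letters had a median level of 4.89 TPM and those without 3.77 TPM, and the difference in fold change was not tested.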

How the data were processed

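RNA of the 4 MCF10A libraries was prepared with a stranded total RNA kit with ribosomal RNA depletion and sequenced in paired ends, per the labels' protocols, while the labels' molecule field says polyA RNA. The submitters' processing notes name kallisto and GRCh38. Its version and the set of transcripts are not stated in the labels or headers. Per the file headers, the authors' tables give estimated counts, in which a read is shared among the transcripts it could come from. The same deposited tables hold TPM values. Near-identical genes therefore exchange counts, and the share of 31-base words a gene holds alone was computed to show where.

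Of 173259 transcripts, 159239 (91.91%) matched GENCODE release 29 by identifier, and the rest, 2.24% to 2.38% of counts per library, entered no test. Gene values are sums over transcripts, and the summed estimated counts were rounded. The arms were split at position 26000000. Genes were kept with filterByExpr by treatment group, scaled by TMM and tested with edgeR 4.0.16 (quasi-likelihood, R 4.3.3), 2 libraries against 2, with Benjamini-Hochberg adjustment over 14774 genes and a threshold of 0.05. The standard error is the size of the estimate over the root of its F statistic. DESeq2 1.42.0, limma 3.58.1 on log2(TPM + 1) and log2(TPM + 0.1) for genes with a mean of at least 0.5 TPM, RLE scaling, other filters and thresholds, protein-coding transcripts alone, the replicate number or treatment as a covariate and each library left out were alternatives. The edgeR test was run on simulated counts, whose spread was estimated with treatment and replicate number both fitted. That spread leaves out the differences between replicate numbers, so the run cannot show how the TGF-β1 test performs on these libraries. Zinc fingers (C, 2 to 4 residues, C, 12 residues, H, 3 to 5 residues, H) and KRAB patterns were counted in translated GENCODE coding sequences. Promoters came from RefSeq's GRCh38.p14 annotation.

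The genes, the lists and the rule for named genes were chosen with earlier results of these data known. The rule took 14 genes with known roles or clusters, the 5 most abundant of each arm and, in each comparison and direction, up to 6 genes by smallest p among those with separated groups and a mean of at least 50 counts in 1 group, plus the lowest and highest fold change. Cluster counts and medians have no test.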

Additional observations from a re-analysis of the deposited data

How the results depend on the processing

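Between TGF-β1 and control, the count of chromosome 19 ZNF genes called stayed at 0 under every alternative run, and their median log2 fold change (-0.11) stayed negative. It was -0.080 with limma on log2(TPM + 1), against -0.030 over all genes. With a library left out it ran from -0.184 to -0.0363, against 0.0016 and -0.019 over all genes in those fits. With the replicate number as a block it was -0.11 and 0 genes were called by edgeR, and with DESeq2 and the block, an alternative chosen after seeing the data, it was -0.10 with 0 called. Of the 35 co-repressor genes edgeR and DESeq2 each called 1 higher with the block. The share of all genes called with the block is not given here, so that count has no background beside it. The labels do not say that same-numbered libraries belong together. The count lower in both same-numbered pairs (116) ran from 91 to 119 under other scaling, filters, transcripts and scale, with 91 of 200 (45.5%) on log2(TPM + 1), against 34.0% of all genes. The sign turned for ZNF350 with limma on log2(TPM + 1) (-0.18) and log2(TPM + 0.1) (-0.20), and for ZNF320 without TGF-β1 replicate 2 (-0.60) or control replicate 2 (-0.13), within a range of -0.60 to 0.80 with a library left out. Between replicate numbers, the 24 genes called higher became 36 with edgeR and treatment as covariate, 11 with DESeq2 and treatment as covariate (chosen after seeing the data), 10 and 9 with limma on log2(TPM + 1) and log2(TPM + 0.1), 8 to 19 with a library left out, and 7 and 46 at thresholds of 0.01 and 0.1. The 5 called lower became 7 with edgeR and treatment as covariate, 2 with protein-coding transcripts alone, 0 with DESeq2 and treatment as covariate, 3 and 3 with limma on the same scales, 0 to 4 with a library left out, and 0 and 9 at thresholds of 0.01 and 0.1. The median between replicate numbers (0.13) was 0.15 with at least 50 counts in 2 libraries, 0.16 with DESeq2, 0.15 with DESeq2 and treatment as covariate, 0.0547 and 0.0668 with limma on log2(TPM + 1) and log2(TPM + 0.1), and 0.0703 to 0.213 with a library left out, and over all genes it was 0.07 with DESeq2 and -0.06 with limma on log2(TPM + 1). With limma on both TPM scales ZNF91, ZNF776, ZNF813, ZNF714, ZNF724, ZNF100 and ZNF845 lost their calls. The share of all genes called in each alternative is not given here. A change in the counts of the set therefore cannot be told from a change in calling over all genes. The cause of these changes was not tested. A library left out leaves 1 in its group, which is then assumed to vary like the rest.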

Other observations

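ZNF320 and its overlapping neighbour ZNF468 showed estimated counts that moved in opposite directions between libraries for 1 transcript of each. The ZNF320 transcript of 6448 bases had 58.8 and 280 estimated counts in TGF-β1 replicates 1 and 2, and 219 and 73.7 in control replicates 1 and 2. The ZNF468 transcript of 6074 bases had 308 and 0.0000874 estimated counts in TGF-β1 replicates 1 and 2, and 137 and 183 in control replicates 1 and 2. ZNF320 holds 24.9% of its 31-base words alone and ZNF468 36.7%. Both transcripts were chosen after their values were seen, and no test was made of this pattern.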
